A study of Bos taurus with 9 samples.

Results

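H3K9me3 sites kept through butyrate were control H3K9me3 peaks that a butyrate H3K9me3 peak overlapped by at least 1 bp on the nuclear chromosomes. Of 25623 control H3K9me3 peaks, 4120 were kept (16.1%, 95% Wilson interval 15.6 to 16.5) and 21503 were not. The sites were chosen by the measured positions of both H3K9me3 lists, so everything those 2 lists show about them (share kept, lengths, gaps) is given as a description. The other 6 lists, of H3K9ac, H3K27ac and RNA polymerase II (Pol II) in each condition, were not used in the choice. Chromosome 5 held 1038 kept sites, chromosome 14 held 583 and the other 28 nuclear chromosomes held 2499, and these groups are described apart.

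The cells were MDBK, an established epithelial line from bovine kidney obtained from ATCC. Control cells were untreated, and treated cells were given 5 mM butyrate for 24 h. Chromatin immunoprecipitation sequencing (ChIP-seq) with 4 antibodies gave 1 library per antibody and condition, and the input (DNA without immunoprecipitation) was 1 library, which was not analysed here. Each of the 8 lists held peak positions with no height or score, and the read depth behind a peak is unknown here.

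H3K9me3 is the trimethylated form of lysine 9 of histone H3. It is bound by HP1 proteins and is best known for compacted heterochromatin, where it covers satellite and transposon repeats and clusters of zinc finger genes. The same lysine can instead carry the acetyl group seen as H3K9ac, so a single histone tail cannot hold both, while H3K27ac lies on a different lysine of the same tail and marks active promoters and enhancers. Butyrate, a short-chain fatty acid of rumen fermentation, inhibits histone deacetylases, which remove such acetyl groups. A peak list is an average over many cells and both chromosome copies, so that peaks of opposed marks can overlap at a site without sharing a histone.

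With 1 library per group no difference had a replicate check and no test was possible. Intervals are 95% Wilson intervals for shares and binomial intervals for medians, and they cover counting error only. Neighbouring sites share a library and a region and are not independent. Control ChIP libraries were sequenced on lane 4 and butyrate libraries on lane 5, so lane and treatment cannot be told apart. The butyrate H3K9me3 list was the longer one, with 89478 nuclear peaks. H3K9ac had 74114 nuclear peaks in control and 115104 after butyrate, H3K27ac 94603 and 187465, and Pol II 56225 and 31225. The part of list size in the shares below was not tested. All 8 lists were denser on chromosomes 5 and 14 than on the rest. For control H3K9me3 there were 34.7 and 31.5 peaks per Mb there against 7.64 elsewhere, and for control Pol II 57.2 and 53.8 against 18.2. The part of this density in the results below was not tested. The lists pair no position with a gene, and no annotation of their assembly (UMD3.1) was used, so sites are given by position and neither their genes nor marker genes of the cell line were examined.

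Kept sites were spread unevenly over the genome. Chromosome 5 made up 4.55% of the span and held 25.2% of the kept sites, or 8.57 per Mb. Chromosome 14 made up 3.18% of the span and held 14.2% of the kept sites, or 6.89 per Mb. The other chromosomes had 1.02 per Mb. The share of control peaks that was kept was also higher on these chromosomes, at 24.7% (23.4 to 26.0) of 4199 peaks on chromosome 5 and 21.9% (20.3 to 23.5) of 2667 on chromosome 14, against 13.3% (12.8 to 13.8) of 18757 on the rest. The butyrate list was also denser there, at 67.5 and 71.8 H3K9me3 peaks per Mb against 30.7. Among control peaks of 300 bp or longer, the share kept was 34.5% (31.5 to 37.8) on chromosome 5 and 29.2% (25.4 to 33.3) on chromosome 14. On the rest it was 22.6% (21.0 to 24.3). When short butyrate peaks were left out too, the result depended on the setting. With at least 300 bp required in both H3K9me3 lists, the share kept was 15.5% (13.3 to 18.1) on chromosome 5 and 11% (8.55 to 14.05) on chromosome 14. On the rest it was 12.8% (11.6 to 14.2), and the intervals overlapped. With only the longest butyrate peaks, as many as control peaks, the shares were 11.9% (10.9 to 12.9), 10.4% (9.32 to 11.6) and 6.69% (6.34 to 7.05). There chromosomes 5 and 14 stayed above the rest, with intervals apart.

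Among the other 28 chromosomes the share kept was below 16% on 26. The lowest value was 9.82% on chromosome 4 (85 of 866 peaks), and the median was 13.2%. Chromosomes 18 and X stood above this range. On chromosome 18, 153 of 519 peaks were kept (29.5%, 25.7 to 33.5), and on X 116 of 255 (45.5%, 39.5 to 51.6). The chromosome with the next highest share was 15, with 15.8%. The high share on X went with a sparse butyrate list, of 9.37 H3K9me3 peaks per Mb, whereas chromosome 18 had 51.2 per Mb. Without chromosomes 18 and X the share of the rest was 12.4% (11.9 to 12.9). The plot by chromosome shows these 4 chromosomes apart from the others in share, but only 5 and 14 far apart in density.

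**Figure D1:**
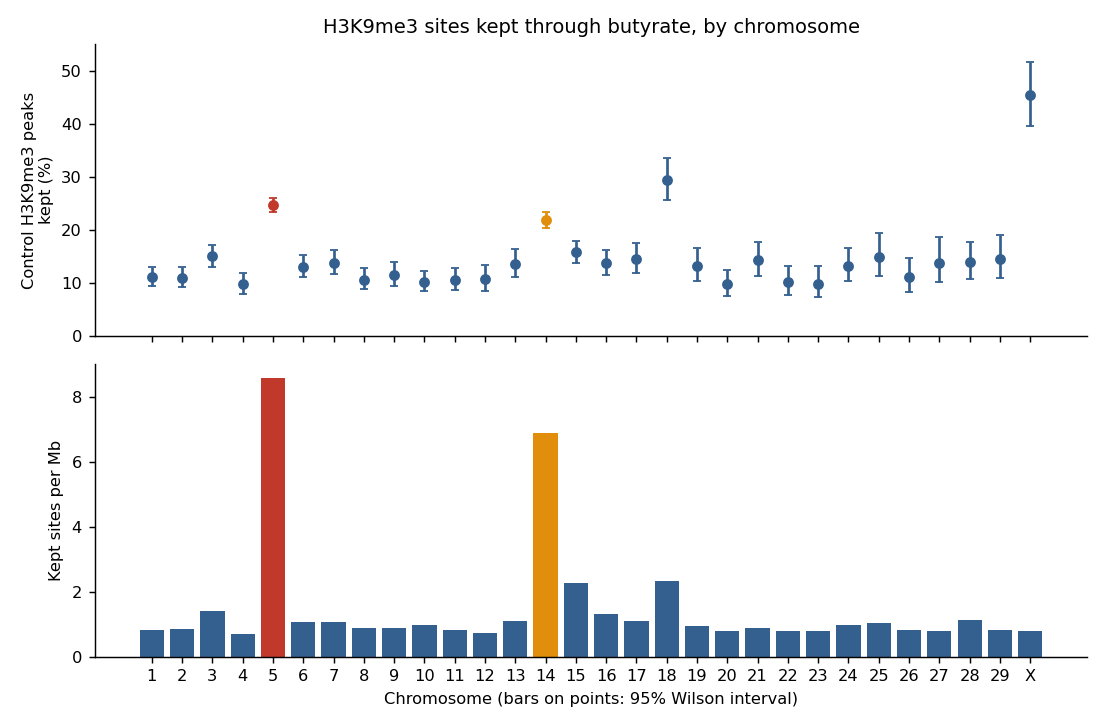
Share of control H3K9me3 peaks kept after butyrate (top, %, points with 95% Wilson intervals) and kept sites per Mb (bottom, bars) for the 30 nuclear chromosomes, with chromosome 5 in red and chromosome 14 in orange. Chromosome X had the highest share (45.5%) with a low density, and chromosomes 5 and 14 had the highest densities (8.57 and 6.89 per Mb).

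Read from the butyrate list, 4127 of its 89478 peaks (4.61%) lay on a kept site. The share was 12.7% on chromosome 5, 9.53% on chromosome 14 and 3.34% on the rest. Butyrate peaks on kept sites had a median length of 277 bp, and those that met no control peak 231 bp. Kept sites were therefore a small part of the H3K9me3 list after treatment.

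The overlap that defines a kept site was short at some of them. At 330 sites (8.01%) it was 50 bp or less, and at 6 it was 1 bp. Just outside the rule, 275 control peaks ended within 50 bp of a butyrate peak, and 5 of these touched one with a gap of 0 bp. Most peaks that were not kept were farther away, with a median gap to the nearest butyrate peak of 3.37 kb on chromosome 5, 3.31 kb on chromosome 14 and 10.02 kb on the rest. When the overlap had to reach 50% of the control peak, the share kept was 17.4% on chromosome 5, 15.6% on chromosome 14 and 9.88% on the rest. With the butyrate list reduced to the size of the control list by keeping its longest peaks, it was 11.9%, 10.4% and 6.69%.

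Kept sites were short, as were all H3K9me3 peaks, and their butyrate peaks were on the whole longer. On the other chromosomes the median length was 231 bp (228 to 233) in control and 285 bp (279 to 295) after butyrate, where the lengths of butyrate peaks on the same site were summed. On chromosome 5 the medians were 244 bp and 281 bp, and on chromosome 14 they were 236 bp and 275 bp. Control peaks that were not kept had medians of 213 bp on the other chromosomes, 228 bp on chromosome 5 and 226 bp on chromosome 14. In the same order, butyrate peaks that met no control peak had medians of 229, 242 and 242 bp. By construction a longer butyrate peak also meets a control peak more easily. The shortest length in every list was 199 bp, and 28.2% of kept sites on the other chromosomes had it, against 40.1% of peaks not kept.

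Site by site, the median log2 ratio of butyrate to control length was 0.22 (0.19 to 0.26) on the other chromosomes, 0.16 (0.10 to 0.22) on chromosome 5 and 0.18 (0.11 to 0.24) on chromosome 14. The butyrate peak was longer at 63.8% of sites on the other chromosomes and shorter at 29.9%. On chromosome 5 it was longer at 59.8% and shorter at 36.1%, and on chromosome 14 longer at 60.7% and shorter at 35.3%. A length at least 2-fold greater was found at 443, 149 and 95 sites of the other chromosomes, 5 and 14, and a length at least 2-fold smaller at 36, 28 and 20. Sites of 500 bp or longer numbered 62, 36 and 12 in control and 405, 141 and 68 after butyrate. In the plot of length the curve of butyrate peaks lies to the right of both control curves, with a tail of long butyrate peaks up to 2068 bp. The ratio depended on the rule, since an overlap of 50% gave 0.29 on chromosome 5 and 0.33 on chromosome 14.

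**Figure D2:**
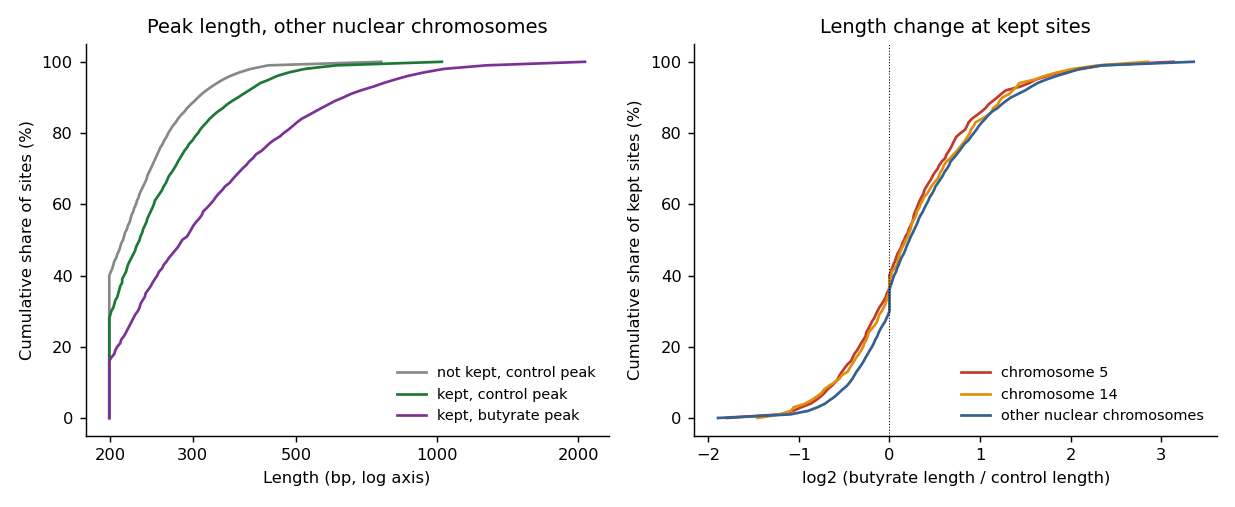
Left, cumulative share of sites (%) by peak length (bp, log axis) on the other nuclear chromosomes, for control peaks not kept, kept control peaks and the butyrate peaks on kept sites, with medians of 213, 231 and 285 bp. Right, cumulative share of kept sites (%) by the log2 ratio of butyrate to control length on chromosome 5, chromosome 14 and the rest, with the dotted line at equal length and medians of 0.16, 0.18 and 0.22.

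Control peaks were covered by the butyrate peak over a median of 77.4% of their length on the other chromosomes, 71.2% on chromosome 5 and 74.5% on chromosome 14. They were wholly covered at 27.9%, 23.9% and 25.2% of sites. A pair of butyrate peaks split the site at 41, 22 and 11 sites. Longer control peaks were kept more often, and by construction a longer peak offers more bases to be met. The share kept on the other chromosomes was 10.9% under 220 bp, 13.6% from 220 to under 300 bp and 22.6% from 300 bp, and on chromosome 5 it was 20.2%, 24.4% and 34.5%.

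The first readout not used in the choice was Pol II, the enzyme that transcribes protein-coding genes. Its libraries shared the cells, the lane of each condition and the input with those of H3K9me3. The part of any shared background was not tested. On the other chromosomes a control Pol II peak overlapped 441 of 2499 kept sites (17.6%, 16.2 to 19.2) and 1042 of 16258 peaks not kept (6.41%, 6.04 to 6.80), where 7.91% of all control H3K9me3 peaks had one. After butyrate, a Pol II peak overlapped 223 kept sites (8.92%, 7.87 to 10.1) and 606 peaks not kept (3.73%, 3.45 to 4.03), and the value over all control peaks was 4.42%. Kept sites thus lay on Pol II peaks more often than the peaks not kept in both conditions, and the intervals did not overlap. The order held within each class of control length. Control Pol II was found at 11.5% of kept sites, against 5.56% under 220 bp, at 16.2% against 6.22% from 220 to under 300 bp, and at 32.1% against 10.98% from 300 bp.

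The chromosomes with a high share kept were compared with their own peaks not kept. On X control Pol II overlapped 46 of 116 kept sites (39.7%, 31.2 to 48.8) and 24 of 139 peaks not kept (17.3%, 11.9 to 24.4), and butyrate Pol II overlapped 27 (23.3%, 16.5 to 31.7) and 10 (7.19%, 3.95 to 12.7). On chromosome 18 control Pol II overlapped 20 of 153 kept sites (13.1%, 8.62 to 19.3) and 27 of 366 peaks not kept (7.38%, 5.12 to 10.52), with overlapping intervals. Butyrate H3K27ac overlapped 7 kept sites of chromosome 18 (4.58%, 2.23 to 9.14) and 63 peaks not kept (17.2%, 13.7 to 21.4).

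The acetyl marks of control cells separated kept sites from the others less. A control H3K27ac peak overlapped 217 kept sites of the other chromosomes (8.68%, 7.64 to 9.85) and 8.91% (8.48 to 9.35) of the peaks not kept, with 8.88% over all control peaks. Control H3K9ac overlapped 181 kept sites (7.24%, 6.29 to 8.33) and 8.97% (8.54 to 9.42) of the others, with 8.74% over all. For H3K27ac the intervals overlapped widely, and for H3K9ac they stood apart by a small step.

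After butyrate the acetyl marks differed more. Butyrate H3K9ac overlapped 217 kept sites (8.68%, 7.64 to 9.85) and 2404 peaks not kept (14.8%, 14.2 to 15.3), beside 14% (2621 of 18757) of all control H3K9me3 peaks. Butyrate H3K27ac overlapped 280 kept sites (11.2%, 10.03 to 12.5) and 2997 peaks not kept (18.4%, 17.8 to 19.04), beside 17.5% of all. Where H3K9me3 had a peak in both conditions, acetyl peaks after treatment were thus less frequent than where it had a peak in control alone. Within length classes butyrate H3K27ac overlapped 9.36% of kept sites against 16.9% under 220 bp, 11.8% against 18.6% from 220 to under 300 bp and 13.97% against 25.1% from 300 bp.

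With the 3 active marks joined, 615 kept sites of the other chromosomes met at least 1 of them in control (24.6%, 23.0 to 26.3) and 507 after butyrate (20.3%, 18.8 to 21.9). Over all control H3K9me3 peaks these shares were 18.3% and 23.7%, and over peaks not kept 17.3% (16.7 to 17.9) and 24.2% (23.6 to 24.9). The share was lower after butyrate at kept sites and higher at the others. Each mark alone differed in the same direction in both sets, with acetyl peaks more frequent and Pol II peaks less frequent after butyrate. Among control peaks of 300 bp or longer, kept sites and the others were close after butyrate, with a difference of -0.72 points (-5.17 to 3.73). In that class 39.6% of kept sites and 25.9% of peaks not kept met an active mark in control, and 32.5% and 33.2% after butyrate. When both H3K9me3 lists were limited to peaks of at least 300 bp, 42.5% of 313 kept sites met an active mark in control and 34.8% after butyrate. Under that limit no share was computed for peaks not kept.

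**Figure D3:**
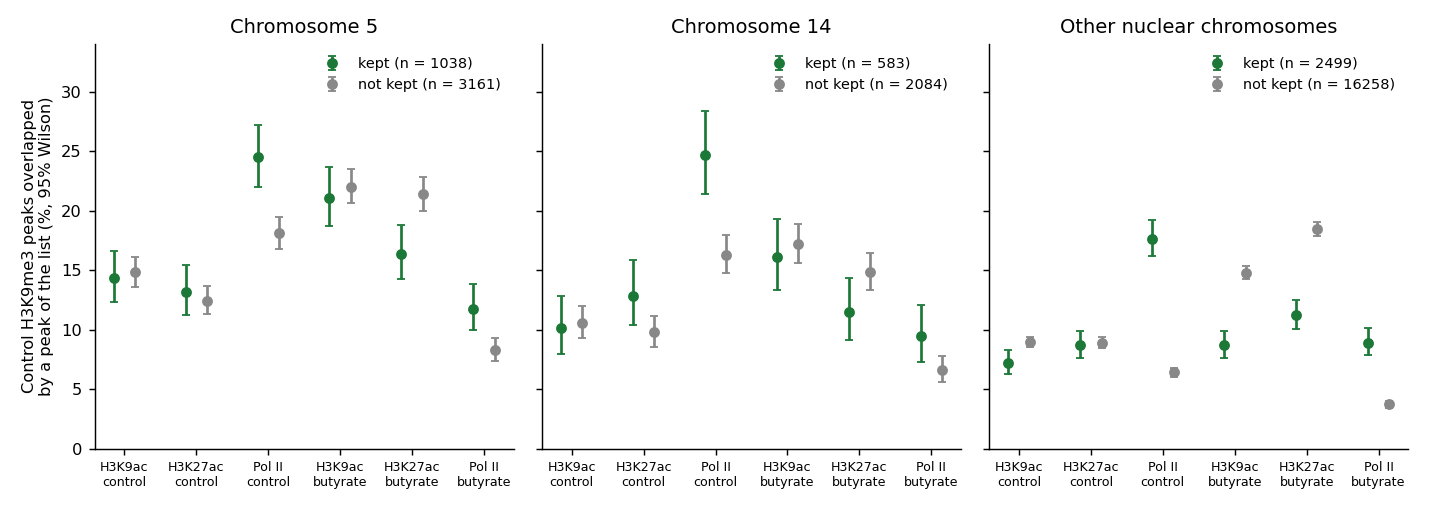
Share of control H3K9me3 peaks (%, points with 95% Wilson intervals) overlapped by a peak of each of the 6 other lists, for kept sites (green) and peaks not kept (grey) on chromosome 5, chromosome 14 and the other nuclear chromosomes. On the other chromosomes Pol II was the more frequent at kept sites (17.6% against 6.41% in control) and butyrate H3K27ac the less frequent (11.2% against 18.4%).

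On chromosome 5 fewer lists set kept sites apart. Control Pol II overlapped 254 of 1038 kept sites (24.5%, 22.0 to 27.2) and 18.1% (16.8 to 19.5) of peaks not kept, with 19.7% over all control peaks there. Butyrate Pol II overlapped 122 (11.8%, 9.93 to 13.9) against 8.32% (7.41 to 9.33), with 9.17% over all. Both pairs of intervals were apart. Butyrate H3K27ac overlapped 170 kept sites (16.4%, 14.3 to 18.8) against 21.4% (19.99 to 22.8), with 20.1% over all. Without the windows of 1 Mb that held 10 or more kept sites, the difference in butyrate H3K27ac was -1.49 percentage points (-5.58 to 2.60), against -5.01 with them. That in control Pol II was 2.55 points (-1.80 to 6.90) under 220 bp, and that in butyrate Pol II was 0.72 points (-4.24 to 5.68) from 300 bp, against 6.37 and 3.43 over all lengths. For the remaining marks the intervals overlapped. Control H3K9ac gave 14.4% of kept sites against 14.8% (all peaks 14.7%), control H3K27ac 13.2% against 12.4% (all 12.6%), and butyrate H3K9ac 21.1% against 22.0% (all 21.8%). Any active mark was met by 37.6% of kept sites in control, where all peaks gave 33.5%, and by 31.9% after butyrate, where all peaks gave 30.8%.

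On chromosome 14 control Pol II again stood apart, with 144 of 583 kept sites (24.7%, 21.4 to 28.4) against 16.3% (14.7 to 17.9) and 18.1% over all control peaks. Without the windows of 10 or more kept sites this difference was 4.11 points (-0.73 to 8.95), against 8.43 with them. Butyrate Pol II overlapped 55 sites (9.43%, 7.32 to 12.1) against 6.62% (5.63 to 7.77), with 7.24% over all, and these intervals overlapped. So did those of butyrate H3K27ac, with 67 sites (11.5%, 9.15 to 14.3) against 14.8% (13.4 to 16.4) and 14.1% over all. Control H3K27ac was found at 75 sites (12.9%, 10.4 to 15.8) against 9.79% (8.59 to 11.1), with 10.5% over all. H3K9ac gave 10.1% of kept sites in control against 10.6% (all 10.5%), and 16.1% after butyrate against 17.2% (all 16.9%). Any active mark was met by 37.2% of kept sites in control, where all peaks gave 29.6%, and by 23.2% after butyrate, where all peaks gave 23.4%.

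The marks were then followed from control to butyrate at the same sites. A site counted when it met a peak of the mark in both conditions, whether or not those peaks overlapped each other. The shares of all control peaks, here and below, count control peaks of the mark that a butyrate peak of that mark overlapped. This measure is unlike the share of sites and is not directly comparable with it. Of 441 kept sites of the other chromosomes with Pol II in control, 119 also had it after butyrate (26.98%, 23.1 to 31.3). For peaks not kept this was 102 of 1042 (9.79%, 8.13 to 11.7), and for all control Pol II peaks of these chromosomes it was 3.89%. On chromosome 5 the share was 17.7% (13.5 to 22.9) of 254 kept sites against 12.9% (10.4 to 15.9), beside 8.11% of all control Pol II peaks there. On chromosome 14 it was 18.1% (12.6 to 25.1) of 144 against 8.26% (5.78 to 11.7), beside 6.17% of all. Sites that held H3K9me3 in both lists thus also held Pol II in both more often on the other chromosomes and on chromosome 14, while on chromosome 5 the intervals overlapped.

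The acetyl marks gave lower shares at kept sites than at peaks not kept. Of kept sites of the other chromosomes with an acetyl peak (H3K9ac or H3K27ac) in control, 158 had one after butyrate and 141 did not (52.8% had one, 47.2 to 58.4), against 79.0% (77.1 to 80.7) of 2044 acetylated peaks not kept. For H3K27ac alone, 99 of 217 kept sites had it again (45.6%, 39.1 to 52.3), against 77.1% (74.8 to 79.2), and all control H3K27ac peaks of these chromosomes gave 66.0%. For H3K9ac the shares were 47.5% (40.4 to 54.8) and 65.2% (62.7 to 67.6), and all control H3K9ac peaks gave 48.2% by their own measure. Kept sites with no acetyl peak in control had one after butyrate in 208 of 2200 cases (9.45%, 8.30 to 10.7), against 15.3% (14.7 to 15.9) of those not kept.

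On chromosome 5, 137 of 211 acetylated kept sites were acetylated after butyrate (64.9%, 58.3 to 71.0) against 80.4% (77.1 to 83.4). The share of unacetylated sites with an acetyl peak after butyrate was 16.6% (14.2 to 19.3) against 16.1% (14.7 to 17.5), which overlapped. On chromosome 14 the corresponding values were 62.0% (52.6 to 70.6) of 108 sites against 73.6% (68.5 to 78.2), and 9.26% (6.97 to 12.2) against 12.1% (10.6 to 13.7). By mark, H3K27ac was found again at 54.0% of kept sites against 74.6% on chromosome 5 and at 40.0% against 66.7% on chromosome 14, where all control H3K27ac peaks gave 66.6% and 62.6%. For H3K9ac the shares were 62.4% against 74.1% on chromosome 5 and 72.9% against 72.7% on chromosome 14, and all control H3K9ac peaks gave 52.6% and 49.7%. The lower share at kept sites thus concerned H3K27ac in all 3 groups of chromosomes, while H3K9ac on chromosome 14 did not show it.

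The length ratio of the H3K9me3 peak was also read by these marks, again as a description. Outside chromosomes 5 and 14 the 1661 kept sites met by none of the 6 lists had a median log2 ratio of 0.29 (0.24 to 0.32), from 222 bp to 283 bp. The 366 sites with an acetyl peak after butyrate had 0.06 (0.00 to 0.12), the 141 with an acetyl peak in control only 0.18 (0.04 to 0.29), and the 276 with Pol II in control and no acetyl peak 0.11 (0.03 to 0.23). In the same order of groups the ratios were 0.13, 0.21, 0.31 and 0.11 on chromosome 5 and 0.20, 0.10, 0.09 and 0.22 on chromosome 14. The order of the groups was thus different in each of the 3 sets of chromosomes, and on chromosomes 5 and 14 the intervals of the groups overlapped.

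Most kept sites carried no other peak, or just 1. On the other chromosomes 1661 (66.5%, 64.6 to 68.3) were met by none of the 6 lists, against 69.7% of peaks not kept. On chromosome 5 it was 509 (49.0%) against 56.9%, and on chromosome 14 it was 327 (56.1%) against 63.2%. A control Pol II peak and nothing else was found at 231 kept sites of the other chromosomes (9.24%, 8.17 to 10.4), against 3.56% of those not kept. On chromosome 5 this held for 130 sites (12.5%) against 9.11%, and on chromosome 14 for 85 (14.6%) against 9.60%. Pol II alone was thus the more frequent at kept sites in all 3 groups of chromosomes.

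At the extremes, Pol II in both conditions with no acetyl peak in either was found at 45 kept sites of the other chromosomes (1.80%, 1.35 to 2.40) and at 14 of the 16258 peaks not kept (0.0861%, 0.0513 to 0.145). Chromosome 5 had 17 such kept sites (1.64%) and chromosome 14 had 7 (1.20%), against 15 (0.475%) and 9 (0.432%) peaks not kept. Sites met by all 6 other lists numbered 16 (0.640%), 11 (1.06%) and 2 (0.343%) among kept sites of the other chromosomes, 5 and 14. Among peaks not kept there were 37 (0.228%), 24 (0.759%) and 6 (0.288%), and on chromosomes 5 and 14 the intervals overlapped. The kept sites met by all 6 lists had a peak of every antibody in both conditions.

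Around the sites the marks formed narrow maxima. The plot of coverage by distance gives, for the other chromosomes, the share of sites that a peak covers at each offset. Control Pol II covered 14.05% of kept sites at the centre, 1.48% at 1 kb on one side and 1.24% on the other. At peaks not kept these values were 4.25%, 1.01% and 0.916%. The Pol II difference was therefore within the H3K9me3 peak and its margins and was small at a distance of 1 kb.

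Acetylation differed over a wider span. Butyrate H3K27ac covered 9.08% of kept sites at the centre and 15.7% of peaks not kept. At 1 kb it covered 3.16% and 3.08% of kept sites against 6.45% and 6.53%, and at 5 kb 4.20% and 4.36% against 5.63% and 5.63%. Coverage at kept sites was thus lower at 1 kb than at 5 kb, a dip that peaks not kept did not have. Control H3K27ac had a similar dip, with 1.68% and 1.64% at 1 kb against 3.06% and 2.85% at peaks not kept, and 2.36% and 2.96% at 5 kb. For butyrate H3K9ac the values at 1 kb were 1.60% and 1.84% against 3.03% and 3.40%.

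**Figure D4:**
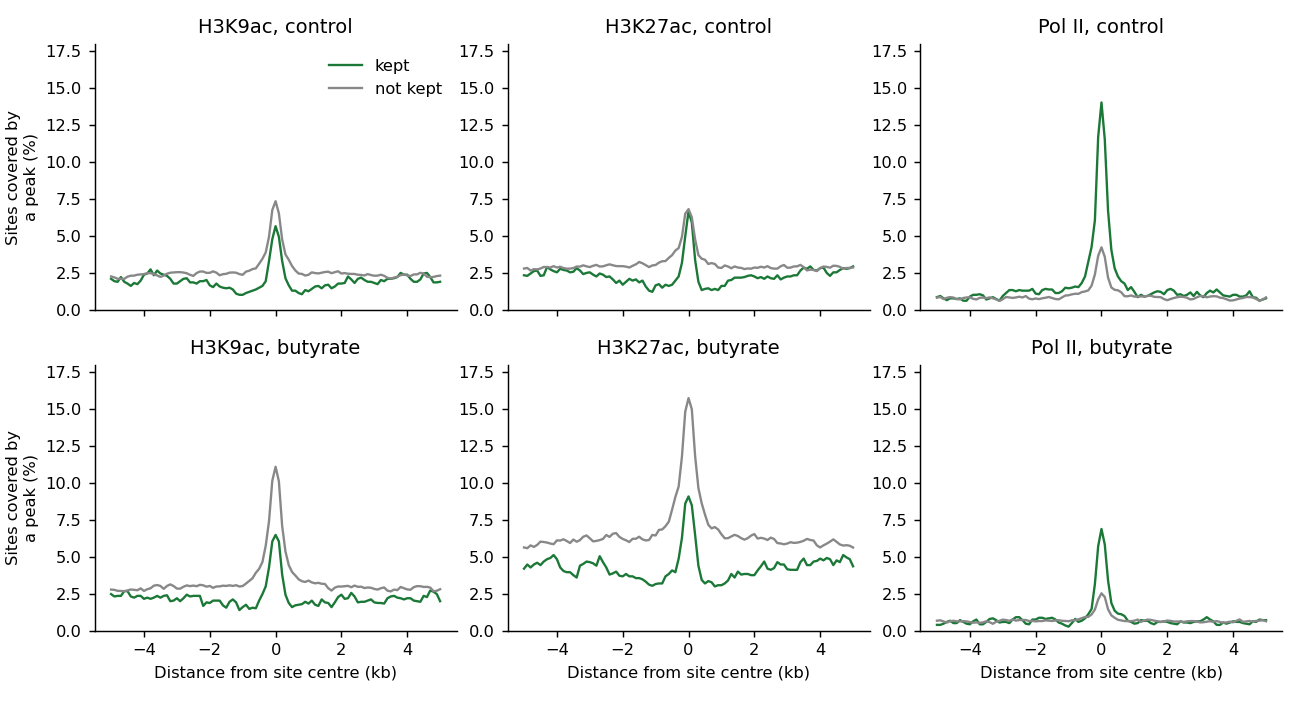
Share of sites covered by a peak (%) by distance from the centre of the control H3K9me3 peak (kb, 5 kb to each side in steps of 100 bp) for H3K9ac, H3K27ac and Pol II in control (top) and after butyrate (bottom), on the other nuclear chromosomes, for 2499 kept sites (green) and 16258 peaks not kept (grey). Pol II has a higher maximum at kept sites (14.05% against 4.25% in control), and butyrate H3K27ac is lower at kept sites from the centre outwards (9.08% against 15.7% at the centre).

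Within 10 kb of a site, with peaks on the site itself counted for every list, the picture was milder. Of kept sites on the other chromosomes, 56.0% (54.1 to 58.0) had a control Pol II peak in that range, against 46.7% (45.9 to 47.5). Butyrate H3K27ac was present for 42.4% (40.5 to 44.4) against 45.6% (44.9 to 46.4), and butyrate H3K9ac for 45.7% (43.8 to 47.7) against 49.7% (48.9 to 50.4). On chromosome 5 control Pol II was within 10 kb of 82.9% of sites in both sets. There the acetyl marks were nearer to kept sites, with butyrate H3K9ac for 56.4% (53.3 to 59.3) against 50.4% (48.6 to 52.1). The butyrate H3K9me3 list itself was dense near kept sites, with a mean of 3.15 peaks within 10 kb on the other chromosomes against 0.904, a count that includes the overlapping peak.

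Along the chromosomes, 95.9% of the 122 windows of 1 Mb on chromosome 5 and 96.5% of the 85 on chromosome 14 held a kept site, with medians of 8 and 6 per window. Elsewhere 50.4% of 2470 windows held one. Windows with 10 or more kept sites numbered 46 on chromosome 5 (659 sites, 63.5%), 20 on chromosome 14 (281 sites, 48.2%) and 14 elsewhere (197 sites, 7.88%). In those 14 windows control Pol II overlapped 33.5% of kept sites and butyrate H3K27ac 3.05%, or 66 and 6 of 197. Outside them it was 16.3% and 11.9% of 2302. Peaks not kept in the same 14 windows gave 18.2% (13.4 to 24.3) and 5.21% (2.85 to 9.32) of 192, so that Pol II set the kept sites apart there and butyrate H3K27ac was low in both sets. In the dense windows of chromosomes 5 and 14 butyrate H3K27ac overlapped 16.8% and 11.7% of kept sites, and outside them 15.6% and 11.3%. Peaks not kept in the same dense windows gave 25.8% and 18.8%, and outside them 17.1% and 13.1%. Positions also differed, with 10.4% of kept sites of the other chromosomes in the first 10% and 10.3% in the last 10% of their chromosome, against 7.37% and 6.70% of peaks not kept. On chromosome 5 the order in the first 10% was reversed, with 6.65% against 10.9%, and the last 10% held 2.50% against 2.06%. On chromosome 14 these shares were 7.38% against 4.17% and 11.3% against 10.3%.

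The windows with the most kept sites on chromosome 5 were 84000001 to 85000000 (28 of 59 control peaks), 18000001 to 19000000 (27 of 70) and 38000001 to 39000000 (25 of 73). On chromosome 14 they were 76000001 to 77000000 (23 of 60), 75000001 to 76000000 (22 of 51) and 1 to 1000000 (19 of 30). The first window of chromosome 14 was unlike the other 5 in its marks. It held no H3K9ac peak in either condition and no butyrate H3K27ac peak, while control Pol II overlapped 11 of its 19 kept sites and butyrate Pol II overlapped 6.

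On the other chromosomes the leading window was 47000001 to 48000000 of chromosome 18, where 26 of 47 control peaks were kept and the butyrate H3K9me3 list had 344 peaks. Pol II overlapped 2 of these 26 in control and 1 after butyrate. The next was 7000001 to 8000000 of chromosome 16, with 21 of 31 kept, 8 of them on control Pol II and none on H3K27ac in either condition. In 6000001 to 7000000 of chromosome 6, 20 of 45 were kept, 14 of them on control Pol II and 10 on butyrate Pol II, while butyrate H3K27ac met none of the 20. These windows thus differed in how many of their kept sites lay on Pol II. As whole windows they all held more Pol II peaks than the median window outside chromosomes 5 and 14 (17 in control, 8 after butyrate), with 33 and 25 on chromosome 18, 35 and 9 on chromosome 16, and 45 and 20 on chromosome 6. Chosen after their values were seen, 51000001 to 52000000 of chromosome 17 (17 of 31 kept) and 37000001 to 38000000 of X (17 of 29) had control Pol II on 13 and 7 of their kept sites. The chromosome 17 window had no acetyl peak after butyrate, against 2 H3K9ac and 6 H3K27ac peaks in control.

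**Figure D5:**
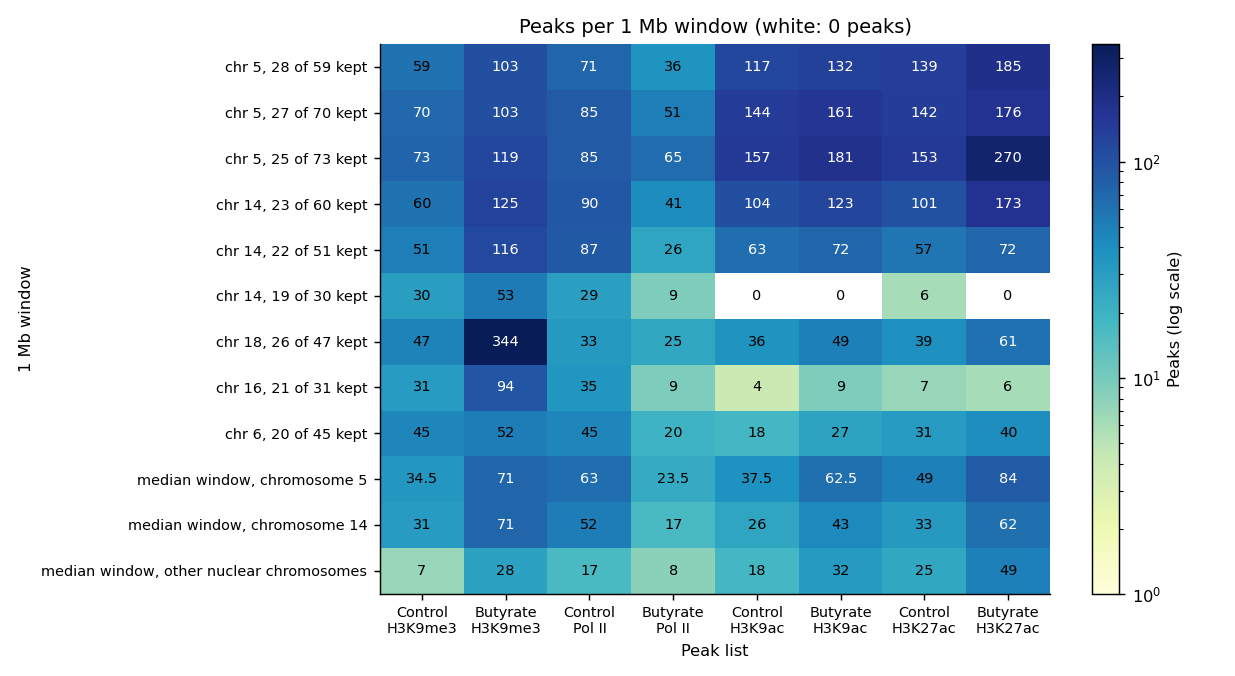
Number of peaks of each of the 8 lists (colour on a log scale, numbers in the cells) in the 1 Mb windows with the most kept sites on chromosome 5, chromosome 14 and the other nuclear chromosomes, above the median window of each group. The chromosome 18 window has 344 butyrate H3K9me3 peaks, and 1 window of chromosome 14 has no H3K9ac peak in either condition.

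At a finer scale, kept sites less than 10 kb apart formed 148 runs on chromosome 5 (335 sites, 32.3%), 61 on chromosome 14 (138 sites, 23.7%) and 196 elsewhere (438 sites, 17.5%). The largest runs outside chromosomes 5 and 14 held 6 sites each. One lay on X from 37767691 to 37796280, where control Pol II overlapped 2 of the 6 and butyrate H3K27ac and butyrate Pol II 1 each. Another lay on chromosome 7 from 22082913 to 22103448, where control Pol II and control H3K27ac each overlapped 1 and no acetyl or Pol II peak was present on them after butyrate. On chromosome 5 the run with the widest span of those with 4 sites was 83340536 to 83356978, and on chromosome 14 it was 75620950 to 75640215.

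Single sites show how the marks combine. The longest kept site, on chromosome 3 from 17537053 to 17538075 (1023 bp), met H3K9ac, H3K27ac and Pol II in control and none of them after butyrate, and its butyrate H3K9me3 peak was 571 bp long. On chromosome 16 a 919 bp site from 74911266 to 74912184 met H3K9ac and Pol II in both conditions and had a butyrate H3K9me3 peak of 250 bp. A site of 858 bp on the same chromosome, from 7620957 to 7621814, was split into a pair of butyrate peaks of 689 bp in all. These control peaks had shorter H3K9me3 peaks after treatment, which their choice as the longest in control favours.

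The longest butyrate peaks, likewise chosen by their length, lay on control sites of modest length. On chromosome 25 a 387 bp site from 39089538 to 39089924, met by none of the 6 lists, lay in a butyrate peak of 2068 bp. On chromosome 15, sites of 199 bp (10155217 to 10155415) and 282 bp (10156962 to 10157243) were joined by a single butyrate peak of 2042 bp, and both met control H3K9ac and butyrate H3K27ac. Of all kept sites met by all 6 other lists, the longest was on X from 139773042 to 139773822 (781 bp), with a butyrate peak of 271 bp. The longest met by none outside chromosomes 5 and 14 was on chromosome 17 from 51188552 to 51189196 (645 bp), within the dense window named above.

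On chromosome 5 the longest kept sites ran from 79062906 to 79063647 (742 bp, 5 of the 6 other lists), from 41361433 to 41362122 (690 bp, 3 lists) and from 21776105 to 21776791 (687 bp, control Pol II alone). The longest butyrate peak there, 1751 bp, met sites from 100893535 to 100893876 and from 100894195 to 100894393, and the next, 1716 bp, a site from 95859197 to 95859438. A 406 bp site from 84544169 to 84544574 met all 6 lists, and a 630 bp site from 83311789 to 83312418 met none. Long H3K9me3 peaks of chromosome 5 thus included both marked and unmarked positions.

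The longest kept sites of chromosome 14 were 593, 590 and 584 bp long, from 52342969 to 52343561, from 72358714 to 72359303 and from 75639632 to 75640215. The first and second met none of the 6 lists. A 338 bp site from 75632614 to 75632951 met none either and lay under the chromosome's longest butyrate peak on a kept site, 1626 bp. The next, of 1593 bp, joined sites from 57375923 to 57376308 and from 57376687 to 57377151, both with control H3K27ac and Pol II. A 428 bp site from 76036423 to 76036850 met all 6 lists, in the window that held the most kept sites of this chromosome.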

How the data were processed

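The submitters' processing notes list Trim Galore 0.4.1, BWA, MACS2 and the cattle assembly UMD3.1. By the methods of the study, the authors removed reads that failed the quality filter, aligned the rest with BWA to UMD3.1.1, kept unique alignments and called peaks with MACS2 against the input. Trimming of the ChIP-seq reads is not described there. The deposited lists give chromosome, start and end without a score, fold or count. Starts were read as counted from 0, and positions are printed from 1. If starts were counted from 1, lengths would be 1 bp too low. Mitochondrial peaks were left out.

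Overlaps (1 bp or more), lengths, 1 Mb windows and runs were computed with Python 3.11.15, numpy 2.4.6, pandas 2.3.3 and scipy 1.17.1, and the procedure was tested on simulated data. The kept sites, length classes and comparisons were chosen with earlier results of these data known. Named regions are, in each group of chromosomes, the 3 longest kept sites, the 3 with the longest butyrate peak, the 3 windows and the run with most kept sites, and the longest site met by all and by none of the 6 other lists. Alternatives were an overlap of 50%, peaks of at least 300 bp, peaks under 1 kb apart joined, a butyrate list of equal size, autosomes only and length classes. Leaving out dense windows, or sites met by 5 or 6 lists, was added after seeing the data.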

Additional observations from a re-analysis of the deposited data

Results flagged for a closer look

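Of 12 comparisons of control with butyrate shares, kept sites and peaks not kept differed in opposite directions in 2. On chromosome 14 the share with an H3K27ac peak was 12.9% in control and 11.5% after butyrate at kept sites, a difference of -1.37 percentage points, and 9.79% and 14.8% at peaks not kept, a difference of 5.04 points. On the other nuclear chromosomes the share with any active mark was 24.6% and 20.3% at kept sites, a difference of -4.32 points, and 17.3% and 24.2% at peaks not kept, a difference of 6.89 points. Each single mark there differed in the same direction in both sets. At kept sites H3K9ac differed by 1.44 points, H3K27ac by 2.52 and Pol II by -8.72. At peaks not kept these differences were 5.81, 9.53 and -2.68 points. With 1 library per group none of these differences was tested.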

How the results depend on the processing

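No paired analysis was possible because only 1 library stood in each group. Of 52 alternative values of the shares and length ratios, 32 moved by more than counting error. An overlap of at least 50% of the control peak was required of butyrate H3K9me3 and of each active mark alike. It gave a share kept of 17.4%, 15.6% and 9.88% on chromosome 5, chromosome 14 and the rest. Under this stricter rule an active mark was met in control at 26.5%, 26.4% and 21.2% of sites. After butyrate it was met at 26.6%, 18.8% and 17.2%. The length log2 ratios were 0.29, 0.33 and 0.32. Peaks of at least 300 bp gave a share kept of 15.5% on chromosome 5 and 11% on chromosome 14, against 12.8% on the rest, an active mark in control at 46.3%, 52.7% and 42.5%, and after butyrate at 42.6%, 36.4% and 34.8%. Joining peaks under 1 kb apart gave 41.6% with an active mark in control on chromosome 5, and length ratios of 0.30, 0.33 and 0.49. A butyrate list of equal size gave a share kept of 11.9%, 10.4% and 6.69%, an active mark at 41.5% in control and 36.1% after butyrate on chromosome 5, and length ratios of 0.67, 0.77 and 0.75. Fewer sites entered under the 50%, 300 bp and equal-size settings. The active-mark shares under these settings and with joined peaks were not computed for peaks not kept, so they describe kept sites alone. The equal-size list held only the longest butyrate peaks, which by construction favours higher length ratios. What else moved the values was not tested.

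Of 120 differences between kept sites and peaks not kept, 82 stayed within counting error on the same side, 25 moved and 13 changed sign, all with intervals that include 0. On chromosome 5, in points, control H3K9ac was 2.69 at 220 to under 300 bp and 2.47 without dense windows, control H3K27ac -0.67 under 220 bp, butyrate H3K9ac 0.63 under 220 bp and 2.36 without dense windows, and any active mark after butyrate -1.35 from 300 bp. On chromosome 14 any active mark after butyrate was 4.11 from 300 bp, 1.52 without dense windows and 0.019 without sites met by 5 or 6 lists, control H3K9ac 0.19 without those sites, butyrate H3K9ac 1.39 without dense windows, and butyrate Pol II -0.27 under 220 bp. Elsewhere control H3K27ac was 2.36 from 300 bp. With no peak height or depth, a weak peak cannot be told apart from a strong one.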
